A study of Rattus norvegicus with 102 samples.

Results

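Gene expression in hippocampal subfield CA1 was compared with that in CA3 across all rats of the study. Libraries were taken by the subfield in their sample title, which gave 34 CA1 and 34 CA3 libraries, or 68 of the libraries of the series. The other 34 came from the dentate gyrus (DG) and entered here as a point of reference. Every rat gave 1 library to each subfield. The animals were untreated male Fisher 344 rats, 10 young (5 to 6 months) and 24 aged (17 to 22 months). Young and aged rats alike had been tested for spatial memory in the Morris water maze before tissue was taken. Of the aged rats, 12 were labelled unimpaired and 12 impaired, with the lowest score of the young rats as the cut-off. Subfields had been dissected by hand. The design text names a slice of dorsal hippocampus and the methods a dissection along its length, in which CA2 was not separated. Each library thus holds RNA of all cells in a piece of tissue. In such tissue, fewer cells of a type and less RNA per cell cannot be told apart.

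Both subfields are built around a layer of excitatory pyramidal neurons. CA3 neurons receive the mossy fibres of dentate granule cells and contact each other through recurrent collaterals, and their Schaffer collaterals drive CA1, the main output of the hippocampus proper. CA3 is known for rapid storage and completion of patterns, and CA1 for comparing that output with direct input from entorhinal cortex. The alveus and fimbria, which are white matter, and the ependyma and choroid plexus of the ventricle lie next to the pyramidal fields, and the granule cell layer of the DG lies close to both.

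Promoters of 4 genes on which the comparison turns are shown for orientation, each as the 250 bases before the RefSeq start in build GRCr8, 5′ to 3′ on the strand of the gene. Nts, the precursor of the peptide neurotensin, and Wfs1, an endoplasmic reticulum membrane protein that marks CA1 neurons, were higher in CA1. Plagl1, an imprinted zinc-finger transcription factor, and Spag6, a protein of the ciliary axoneme, were higher in CA3. Spag6 is shown as a gene that rested on the rats numbered below 9000 (-2.40 on the log2 scale, against 0.19 from 9000 up), and its call over all rats was lost with the rat as a block and when any of 11 rats was left out. The promoters lie at chr7:39460889-39461138 (minus strand), chr14:78034955-78035204 (plus strand), chr1:9297214-9297463 (plus strand) and chr17:86261825-86262074 (plus strand). Capitals mark a match to the AP-1 motif TGANTCA in Nts and to GTTGCC, the core of the RFX motif, in Spag6, with both strands searched.
Nts: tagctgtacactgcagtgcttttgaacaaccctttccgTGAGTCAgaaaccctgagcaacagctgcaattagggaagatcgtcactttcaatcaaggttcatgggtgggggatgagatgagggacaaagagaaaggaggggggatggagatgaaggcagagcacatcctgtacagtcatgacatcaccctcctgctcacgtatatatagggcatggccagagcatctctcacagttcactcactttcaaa
Wfs1: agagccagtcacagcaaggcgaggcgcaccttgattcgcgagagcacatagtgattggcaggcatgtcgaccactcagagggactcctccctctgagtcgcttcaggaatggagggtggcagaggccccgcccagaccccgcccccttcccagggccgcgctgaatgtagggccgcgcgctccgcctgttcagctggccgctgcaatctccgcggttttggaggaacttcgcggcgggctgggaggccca
Plagl1: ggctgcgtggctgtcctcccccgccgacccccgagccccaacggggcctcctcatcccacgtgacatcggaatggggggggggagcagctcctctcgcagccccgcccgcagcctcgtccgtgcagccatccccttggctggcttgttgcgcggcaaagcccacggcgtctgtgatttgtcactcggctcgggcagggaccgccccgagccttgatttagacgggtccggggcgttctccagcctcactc
Spag6: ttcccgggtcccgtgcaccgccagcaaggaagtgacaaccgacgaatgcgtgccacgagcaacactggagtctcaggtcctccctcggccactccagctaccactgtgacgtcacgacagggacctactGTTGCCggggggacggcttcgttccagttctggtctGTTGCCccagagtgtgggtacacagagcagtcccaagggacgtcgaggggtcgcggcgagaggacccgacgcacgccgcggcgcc
The AP-1 motif stood 212 bases before the start of Nts, and 6.34% of 33469 promoter windows of this length held it. GTTGCC was found 2 times before Spag6, at 121 and 85 bases, and 9.89% of windows held it. The Spag6 window also contained the cAMP response element TGACGTCA, as did 1.59% of windows. Wfs1 and Plagl1 lacked all 3 motifs in this window and had 20 and 23 CpG dinucleotides, against 3 for Nts and 24 for Spag6. The windows belong to another build than the rn5 genome on which the reads had been counted, and a match describes letters only.

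Illumina libraries held 5498746 to 42300025 reads in genes for CA1 (median 11097326) and 3246922 to 42750899 for CA3 (median 10295711). Ion Proton libraries of the same rats held 5353533 to 21434160 and 5475780 to 14987771. In 7 rats the Illumina libraries exceeded 25000000 reads, and 4 of these rats were numbered below 9000 and 3 from 9000 up. Rat numbers in the labels form 2 series, with 18 rats below 9000 (5 young, 6 unimpaired, 7 impaired) and 16 from 9000 up (5, 6 and 5). The study used 2 sites, of 18 and 16 rats by its design text, but the labels do not say at which site a rat was kept, so a number series is used here only as a division of the labels. Scored by subfield markers, 10 of all libraries, DG included, lay nearer to another subfield than to their own in both poly-A tables. They were 1 labelled CA1, 6 labelled CA3 and 3 labelled DG, and all came from rats numbered from 9000 up. For rat R9781 the library labelled CA3 lay nearest to DG and the library labelled DG nearest to CA3. For rat R9869 the library labelled CA1 lay nearest to DG and the library labelled DG nearest to CA1, but its scores did not all change places. The dentate score, the mean log2 level of dentate markers relative to all libraries, was 1.045 in the library labelled DG and 0.24 in the library labelled CA1, the order of the labels. The library labelled CA1 also held a summed level of 25770.5 for genes of the striatum list, against a median of 2806 over CA1 libraries. All libraries were kept under their labels, and counts without the 7 rats whose CA1 or CA3 library was concerned are given beside the results.

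**Figure D1:**
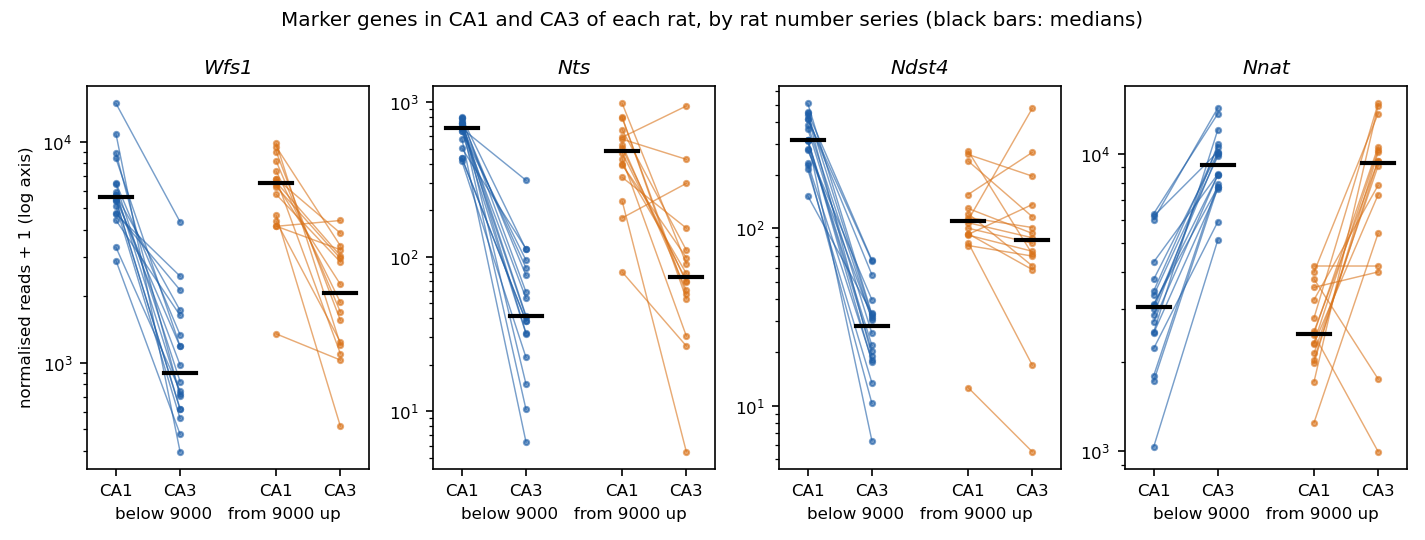
Normalised reads plus 1 of Wfs1, Nts, Ndst4 and Nnat in CA1 and CA3 of each rat, on a log axis, with a line per rat, rats numbered below 9000 in blue and from 9000 up in orange, and black bars at medians. CA1 lay above CA3 for Wfs1 in all 18 blue rats and 15 of 16 orange rats, and for Ndst4 in 18 of 18 and 13 of 16.

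The labels were set beside 4 marker genes, 3 of CA1 and 1 of CA3. The paper names these genes for the same subfields from the same animals, so they are no independent check of the labels. Wfs1 (ENSRNOG00000005108, chromosome 14) ran from 1348 to 14868 (median 5849) normalised reads in CA1 and from 395 to 4393 (median 1286) in CA3. CA1 was higher in 33 of 34 rats, although the ranges overlapped. The change, always CA1 minus CA3 on the log2(value + 1) scale, was 2.08 ± 0.22 (SE; adjusted p = 4.7e-13 by limma) with Illumina and 1.92 ± 0.22 (adjusted p = 5.16e-11 by limma) with Ion Proton. Nts (ENSRNOG00000004179, chromosome 7) ran from 78.5 to 978 (median 618) in CA1 and from 4.48 to 941 (median 58.9) in CA3. The highest CA3 value, that of R9879, came near the highest in CA1, while the lowest CA1 value was that of R9869. It changed by 3.15 ± 0.42 (SE; adjusted p = 1.84e-09 by limma) with Illumina and 3.32 ± 0.48 (adjusted p = 5.43e-08 by limma) with Ion Proton. Ndst4 (ENSRNOG00000009577, chromosome 2), which makes heparan sulphate modifications, ran from 11.6 to 507 (median 236) in CA1 and from 4.49 to 475 (median 46.1) in CA3 and changed by 2.14 ± 0.27 (SE; adjusted p = 3.29e-10 by limma) with Illumina and 2.27 ± 0.31 (adjusted p = 7.49e-09 by limma) with Ion Proton. Nnat (ENSRNOG00000024923, chromosome 3), the imprinted proteolipid neuronatin, went the other way. It ran from 1032 to 6291 (median 2764) in CA1 and from 994 to 14782 (median 9290.1) in CA3, which was higher in 31 of 34 rats. It changed by -1.51 ± 0.16 (SE; adjusted p = 6.49e-13 by limma) with Illumina and -1.46 ± 0.17 (adjusted p = 5.22e-11 by limma) with Ion Proton. The plot of the 4 markers by rat shows that the exceptions were rats numbered from 9000 up.

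The first question was how far the pyramidal fields differ when rats of all ages and maze classes are taken as 1 group. Of 13907 genes tested in both poly-A tables, 1996 (14.4%) passed an adjusted p-value under 0.05 in both with the same direction, which is what called means below. Of these, 1010 (7.26%) were higher in CA1 and 986 (7.09%) were lower. Without the 7 rats with an off-label CA1 or CA3 library, 2480 genes were called (1183 higher and 1297 lower). Those rats had been set apart by marker scores that draw on the same values, so the larger count is no separate evidence. Most differences were small, with a median absolute log2 change of 0.35 among called genes, while 92 exceeded 1 in favour of CA1 and 103 in favour of CA3. These are changes pooled over both series of rat numbers. For 761 of the 1996 genes a difference in the change between the series was called too, as described below. Higher in CA1 did not mean highest in CA1. Of the 1010 genes, 426 had their highest mean in DG, as did 238 of the 986 genes that were lower in CA1. No gene had CA1 and CA3 libraries that did not overlap across the 34 rats.

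The 15 genes with the largest mean change in favour of CA1 were Cd3e, Nts, Nhlh1, Ndst4, Lnp1, Cftr, Wfs1, Plk5, Ackr2, Robo3, Pdyn, Slc27a2, C1ql2, AABR06039834.1 and Clcf1, with Illumina log2 changes from 3.27 to 1.61. They were chosen by the size of this change, which is therefore described and not evidence of their own. Cd3e (ENSRNOG00000016069, chromosome 8) encodes a chain of the T cell receptor complex. It ran from 4.37 to 221 (median 42.1) in CA1 and from 0 to 114 (median 2.63) in CA3, and changed by 3.27 ± 0.44 (SE; adjusted p = 1.4e-09 by limma) with Illumina and 3.46 ± 0.45 (adjusted p = 2.23e-09 by limma) with Ion Proton. Its partner chains were near 0. Cd3d had a median of 0.374 normalised reads in CA1 and Cd3g of 0, with highest values of 2.91 and 6.83, both below the test's minimum of a mean of 10. Of 8 other T cell genes looked up after this value was seen, 3 were abundant enough to test and 0 were called. Several genes of this group are known from dentate granule cells. Pdyn, the dynorphin precursor, had a median of 2299.8 in DG, 1069 in CA1 and 226 in CA3. C1ql2, a C1q-like organiser of mossy fibre synapses, had medians of 1784, 652 and 201. Nhlh1, a helix-loop-helix transcription factor, followed the same order with 339, 125 and 10.1. Plk5, a polo-like kinase, Lnp1 and Robo3 also had their highest mean in DG. The chloride channel Cftr did not, with medians of 6.10 in DG, 92.7 in CA1 and 9.13 in CA3, and neither did Nts, Ndst4, Wfs1 and Ackr2, an atypical chemokine receptor.

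**Figure D2:**
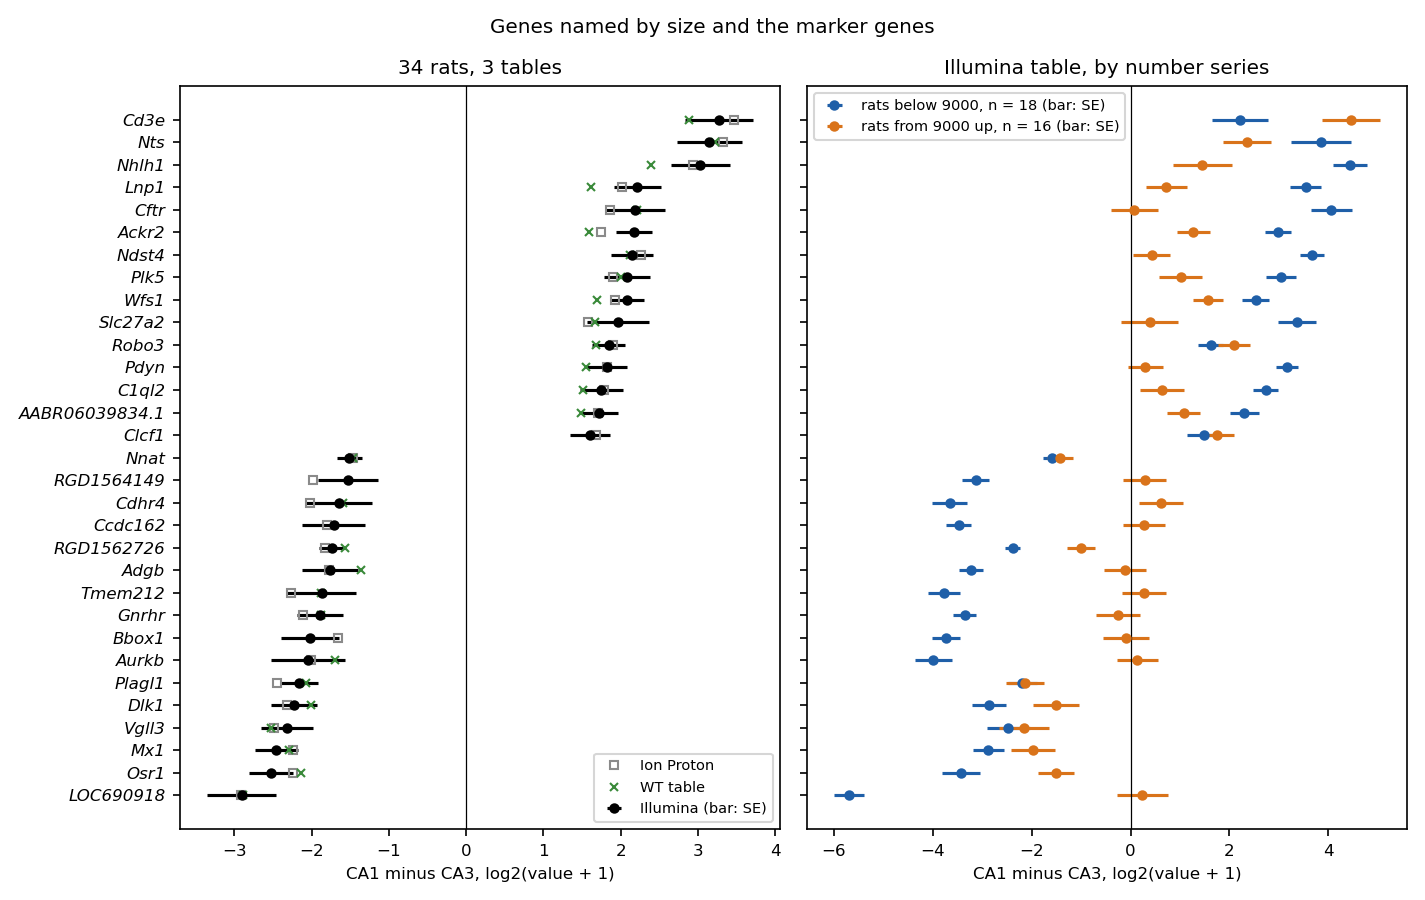
CA1 minus CA3 log2 changes of the 30 genes with the largest mean change and of Nnat. Left, 34 rats in the Illumina table (black, bars are SE), the Ion Proton table (squares) and the WT table (crosses, none where a gene was not tested). Right, the Illumina table in 18 rats numbered below 9000 (blue) and 16 from 9000 up (orange), with SE. The tables lie close together on the left, while LOC690918 is at -5.70 in blue and 0.24 in orange.

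The 15 genes with the largest change in favour of CA3 were LOC690918, Vgll3, Osr1, Mx1, Plagl1, Dlk1, Tmem212, Aurkb, Gnrhr, Bbox1, Cdhr4, RGD1562726, Adgb, Ccdc162 and RGD1564149, with Illumina log2 changes from -2.91 to -1.53. Plagl1 (ENSRNOG00000025587, chromosome 1) ran from 4.27 to 67.6 (median 23.1) in CA1 and from 4.49 to 351 (median 126) in CA3, which was higher in 32 of 34 rats. It changed by -2.16 ± 0.25 (SE; adjusted p = 6.09e-12 by limma) with Illumina and -2.44 ± 0.31 (adjusted p = 1.06e-09 by limma) with Ion Proton. Dlk1, like Plagl1 and Nnat an imprinted gene, had medians of 10.2 and 70.9 and a log2 change of -2.23. Mx1 (ENSRNOG00000001959, chromosome 11), an interferon-induced GTPase, ran from 3.88 to 53.2 (median 20.0) in CA1 and from 2.99 to 430.0 (median 125) in CA3, and changed by -2.46 ± 0.28 (SE; adjusted p = 3.07e-12 by limma) with Illumina and -2.24 ± 0.26 (adjusted p = 3.96e-11 by limma) with Ion Proton. Of 13 interferon response genes tested it was the only call in the fit over all rats, and the median log2 change of the list was -0.03. Gnrhr, the receptor of gonadotropin-releasing hormone, had medians of 5.03 and 23.1. Tmem212, Cdhr4 and Adgb are known from ciliated cells, and Tmem212 had medians of 13.4 in CA1 and 62.6 in CA3. Aurkb, a kinase of mitosis, had medians of 44.0 and 195. Of 8 other mitosis genes looked up after this was seen, 7 were tested and 1 was called, Incenp, in the other direction (log2 change 0.17). Whether reads had been counted by strand is not settled by the sources used here, so a gene such as Aurkb may share reads with one that overlaps it.

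Lists of cell type markers were counted over all 34 rats, against the background of 7.26% higher and 7.09% lower. These lists were drawn up with earlier results of the data known. Of 10 tested CA1 pyramidal markers, 9 higher and 0 lower were called, with a median log2 change of 1.39 against 0.006 over all genes. Among them were the matricellular protein Nov (1.39) and the serotonin receptor Htr1b (1.39). Of 15 tested CA3 pyramidal markers, 0 higher and 10 lower were called (median -0.70), including the potassium channel Kcnq5 (-1.43), the galanin receptor Galr1 (-1.73) and the kainate receptor subunit Grik4 (-0.98). The CA3 marker Coch stood at 0.48 and was not called. Dentate granule markers were higher in CA1 in 9 of 10 cases and lower in 0 (median 0.95). Their summed level was 2282 to 9736 (median 5915) normalised reads in CA1, 1956 to 13018 (median 2688) in CA3 and 2223 to 17529.7 (median 11665) in DG. The marker Tdo2 had a median of 0 in all 3 subfields. The part of granule cells in the genes higher in CA1 was not tested. Of 8 ependymal identifiers tested, which stand for 7 genes because Dnah5 is listed under 2, 0 higher and 6 lower were called (median -0.92), or 5 genes. No microglial, astrocyte, interneuron or oligodendrocyte marker was called, and their list medians were 0.03, -0.004, 0.02 and -0.15.

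The difference between CA1 and CA3 was not the same in the 2 series of rat numbers. A test of CA1 minus CA3 in rats from 9000 up against rats below 9000 called 1936 of 13907 genes (13.9%) in both poly-A tables with the same direction. In the 18 rats below 9000, 3023 genes differed between CA1 and CA3 (21.8% of those tested), and in the 16 rats from 9000 up, 551 (3.95%). Genes are no replicates, but as a description, changes in the series correlated over the 13764 genes tested in each at r = 0.002 in the Illumina table and 0.009 in the Ion Proton table. Within a series the instruments gave like values, with r = 0.911 below 9000 and 0.773 from 9000 up. Median depth was 11990081 and 10351056 reads for CA1 and 10401124 and 9625570 for CA3 in the series. The share of mitochondrial reads in the Illumina table moved with the series in CA3, while the Ion Proton table had a median share of 0% in both subfields. In the Illumina table the share in CA3 was 8.92% to 13.8% (median 10.9%) below 9000 and 11.2% to 20.5% (median 15.7%) from 9000 up. In CA1 it was 11.9% to 16.9% (median 13.7%) and 11.9% to 20.4% (median 14.6%). CA1 had the larger share in 18 of 18 rats below 9000 and 5 of 16 from 9000 up, and the part of this in the results was not tested. Without the 7 rats with an off-label CA1 or CA3 library, 9 rats from 9000 up gave 867 genes and r = 0.135 against the rats below 9000. Those rats had been left out by marker scores from the same values.

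**Figure D3:**
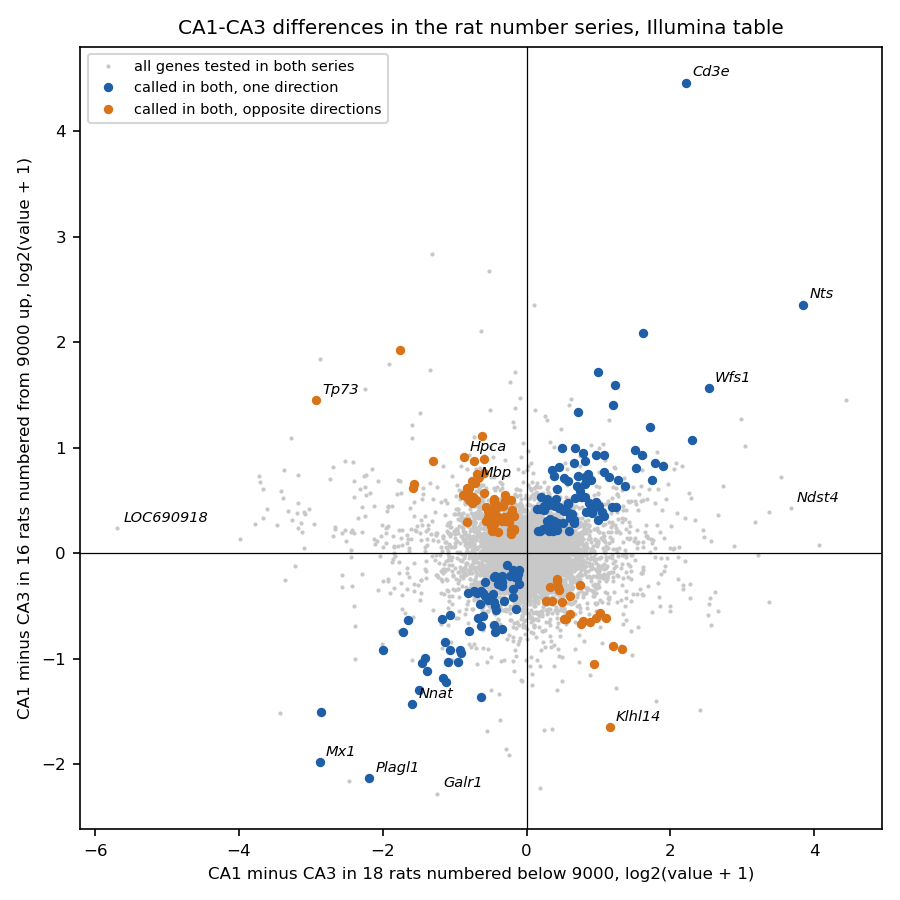
CA1 minus CA3 log2 changes of 13764 genes in the Illumina table, in 18 rats numbered below 9000 (horizontal) and 16 from 9000 up (vertical). Blue points mark 155 genes called in both series with the same direction and orange points 93 with opposite directions, and the grey cloud of all genes shows no slope.

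A total of 248 genes were called in both series, of which 155 had the same direction (92 higher in CA1 and 63 lower). These were 5.18% of the calls below 9000 among genes tested in both and 28.3% of those from 9000 up. Without the off-label rats, 155 of the 155 kept their sign and 144 their call. The rats left are among those whose calls chose these genes, so this is no separate test. The genes with the largest change by the smaller of their values in the series, a choice made after the values were seen, included Nts (3.85 below 9000 and 2.35 from 9000 up), Cd3e (2.22 and 4.46), Robo3 (1.63 and 2.09), Wfs1 (2.53 and 1.57) and Epha8 (1.23 and 1.59). Robo3 and Epha8 are receptors of axon guidance. Wnt2, a Wnt ligand, stood at 0.99 and 1.72. On the CA3 side were Plagl1 (-2.19 and -2.13), Mx1 (-2.88 and -1.98), Dlk1 (-2.86 and -1.51), Nnat (-1.59 and -1.43), the copine Cpne2 (-1.49 and -1.29) and Slit2 (-1.41 and -0.99), which encodes the ligand of Robo receptors. Nnat had medians of 3053 in CA1 and 9184 in CA3 below 9000, and 2476 and 9290.1 from 9000 up. Other genes from the top of the pooled ranking rested on the rats below 9000. LOC690918 had a median of 519 in CA3 and 7.07 in CA1 below 9000, and 81.7 and 129 from 9000 up, with an adjusted p by limma of 5.62e-14 for the difference between the series. Ndst4 had medians of 316 in CA1 and 27.0 in CA3 below 9000, against 108 and 84.5 from 9000 up (adjusted p by limma = 2.89e-09). Cftr had a log2 change of 4.06 below 9000 and 0.07 from 9000 up, Pdyn of 3.17 and 0.30, Tmem212 of -3.77 and 0.27, and Aurkb of -3.99 and 0.14. Trhr, the receptor of thyrotropin-releasing hormone, rested on the other rats, with 0.18 below 9000 and -2.23 from 9000 up (adjusted p by limma for the difference 4.7e-05).

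In 93 genes both series were called and the directions were opposite. Of these, 70 were lower in CA1 below 9000 and higher from 9000 up, and 23 the reverse. Without the off-label rats 93 of 93 kept their sign in the rats from 9000 up and 73 their call. Here too the rats left are among those whose calls chose the genes. Hpca (ENSRNOG00000006979, chromosome 5) encodes hippocalcin, a calcium sensor of pyramidal neurons. In rats below 9000 it ran from 10099 to 34203 (median 16188) in CA1 and from 15375 to 48186 (median 31933) in CA3, which was higher in 18 of 18 rats. From 9000 up it ran from 9509 to 37439.5 (median 24020.0) in CA1 and from 6705 to 24018 (median 12006) in CA3, and CA1 was higher in 15 of 16. Log2 changes were -0.88 (SE 0.12) and 0.91 (SE 0.16), and -0.04 over all rats. Tp73, a transcription factor of the p53 family known for its role in ciliated cells, had medians of 17.2 in CA1 and 117 in CA3 below 9000, and 67.8 and 23.0 from 9000 up. Mbp, myelin basic protein, had 53257 and 81254 below 9000, and 103955 and 60349.8 from 9000 up, a turn seen in 16 of 18 and 15 of 16 rats. In the reverse group, Klhl14 had medians of 130.1 and 64.0 below 9000 and 38.6 and 153 from 9000 up. Gabra3, a GABA-A receptor subunit, changed by 0.76 and -0.67, and Atp2b4, a calcium pump of the plasma membrane, by 1.20 and -0.88. These genes were picked as examples after their values were seen, and others turned as far, such as Mfrp (-1.76 and 1.92) and Tpbg (1.32 and -0.91).

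**Figure D4:**
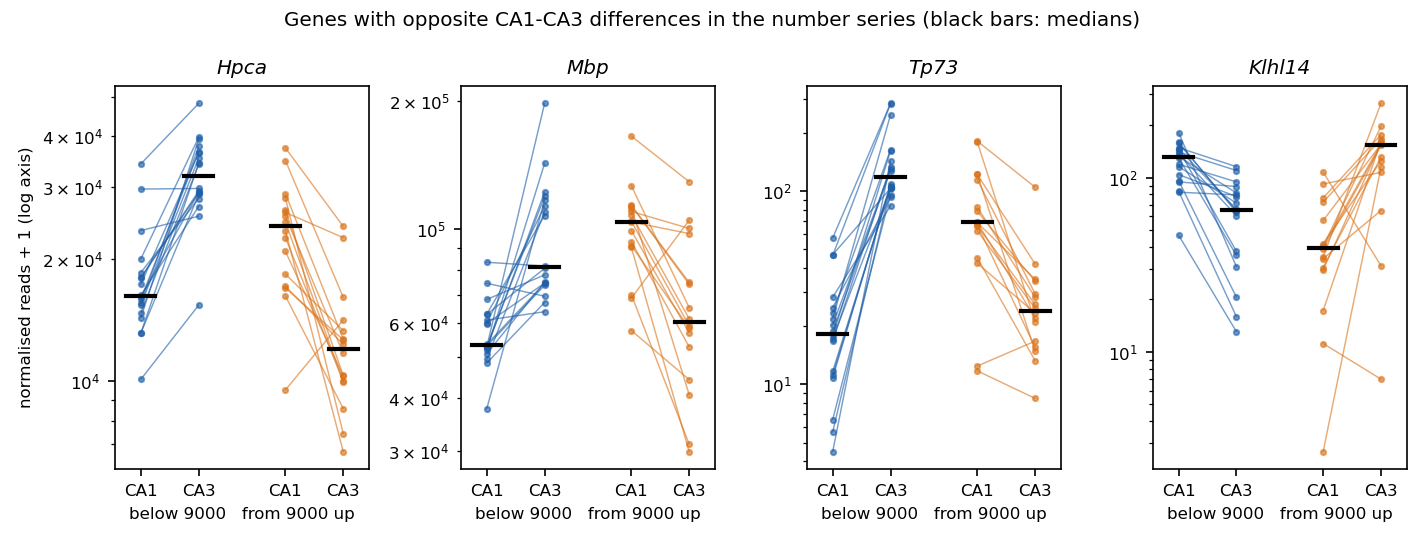
Normalised reads plus 1 of Hpca, Mbp, Tp73 and Klhl14 in CA1 and CA3 of each rat, on a log axis, with a line per rat, rats numbered below 9000 in blue and from 9000 up in orange, and black bars at medians. Hpca rises from CA1 to CA3 in 18 of 18 blue rats and falls in 15 of 16 orange rats.

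Within the 18 rats below 9000, CA1 and CA3 libraries did not overlap for 542 of 13907 genes (3.9%), with CA1 above in 250 and CA3 above in 292. In the 16 rats from 9000 up there were 0 such genes. The score of CA1 markers was higher in CA1 than in CA3 in 18 of 18 rats below 9000 (median difference 2.10) and in 14 of 16 from 9000 up (0.67). The score of CA3 markers was higher in CA3 in 18 of 18 (-1.08) and 12 of 16 (-0.65). The part of these smaller marker differences in the other genes was not tested.

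The lists of CA1 pyramidal, CA3 pyramidal and dentate granule markers differed between the series too. Over all genes, 9.81% were called higher in CA1 and 12% lower below 9000, 2.32% and 1.64% from 9000 up, and 13.9% for the difference between the series, and list counts by series are to be read against these shares here and in the paragraphs that follow. CA1 pyramidal markers gave 9 higher and 0 lower below 9000 (median 2.09) and 4 higher and 0 lower from 9000 up (median 0.47), and 5 of 10 were called for the difference between the series. CA3 pyramidal markers gave 0 higher and 11 lower of 14 tested below 9000 (median -1.36) and 1 higher and 4 lower of 15 from 9000 up (median -0.17). For the difference between the series 10 of 15 were called. Dentate granule markers, 9 of which were higher in CA1 over all rats, gave 9 higher and 0 lower below 9000 (median 1.37) and 0 higher and 0 lower from 9000 up (median 0.35), and 6 of 10 were called for the difference between the series. By class, 9 of these markers were called in young rats (median 1.19), 1 in unimpaired (0.81) and 5 in impaired rats (0.88), against 3.29%, 1.31% and 3.3% of all genes. The summed level of dentate markers had medians of 6626 in CA1 and 2259.9 in CA3 below 9000, and 4707 and 3054 from 9000 up. Of 10 interneuron markers, 2 higher and 1 lower were called below 9000 and 0 from 9000 up, and 2 for the difference between the series.

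Markers of cells that line the pyramidal fields moved with the number series. Of 12 oligodendrocyte markers, 0 higher and 10 lower were called in CA1 below 9000 (median log2 change -0.72) and 3 higher and 0 lower from 9000 up (median 0.54), and 11 of 12 passed the test of the difference between series. Their summed level below 9000 was 80836 to 162326 (median 117912) in CA1 and 127542 to 411719 (median 173916) in CA3, and CA3 was higher in 18 of 18 rats. From 9000 up it was 113544 to 310969 (median 200061) in CA1 and 58730.5 to 241521 (median 122648) in CA3, and CA1 was higher in 15 of 16. Over all rats the list had a median of -0.15 and 0 calls in either direction. Of the 8 ependymal identifiers, 0 higher and 7 lower, both of Dnah5 included, were called below 9000 (median -2.13) and 0 higher and 0 lower from 9000 up (median 0.23), with 7 called for the difference. Their summed level was higher in CA3 in 18 of 18 and 7 of 16 rats. Spag6, whose promoter is shown above, had log2 changes of -2.40 and 0.19, and -1.18 over all rats, and with the rat as a block its Ion Proton adjusted p was 0.056 by limma. Of 6 choroid plexus genes tested below 9000, 0 higher and 3 lower were called (median -1.62), and of 8 tested from 9000 up 0 higher and 0 lower (median 1.68), so that the medians are over unequal sets of genes. For the difference 4 of 8 were called. Their summed level in CA1 from 9000 up ran from 97.1 to 157104 (median 639), and Otx2 was listed at a median of 0. Ttr, transthyretin, the most abundant transcript of the choroid plexus, stood at -1.91 and 1.8. Microglial markers had medians of 0.01 and 0.06 in the series and astrocyte markers of 0.12 and -0.08. The part of myelin, ependyma and choroid plexus in the other differences between series was not tested.

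**Figure D5:**
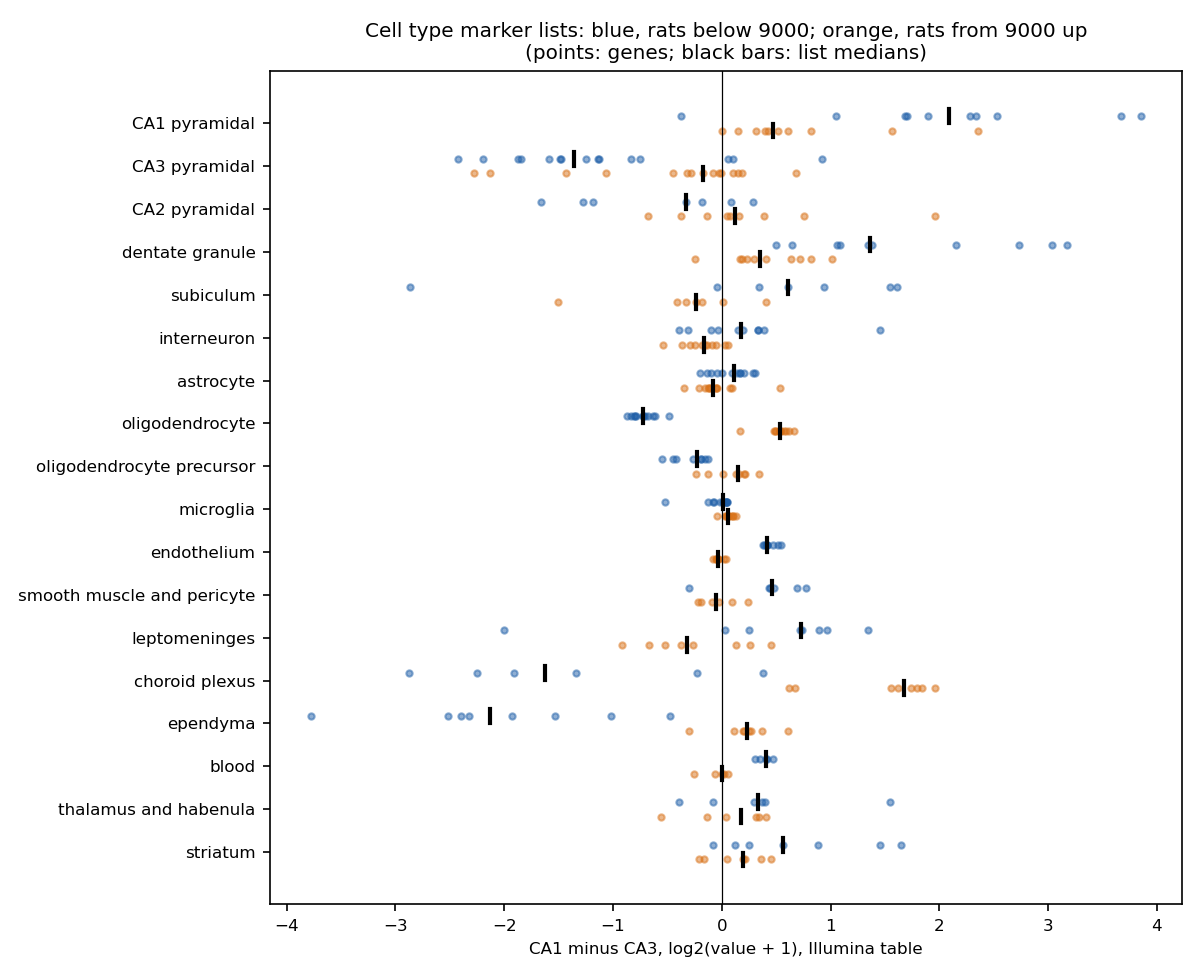
CA1 minus CA3 log2 changes of the genes in 18 cell type marker lists in the Illumina table, in rats numbered below 9000 (blue) and from 9000 up (orange), with a point per gene and a black bar at the list median. Oligodendrocyte genes lie at a median of -0.72 in blue and 0.54 in orange, and ependymal genes at -2.13 and 0.23.

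Receptors of the fast transmitters were called in both directions. Values that follow are Illumina log2 changes over all rats, and the background is 7.26% higher and 7.09% lower. Of 14 AMPA receptor genes, 3 higher and 0 lower were called, the subunit Gria3 (0.40) and the auxiliary subunits Cacng3 (0.88) and Cnih3 (0.75). The call of Cnih3 was lost with the rat as a block and when any of 18 rats was left out, and the gene stood at -0.50 from 9000 up. Of 7 NMDA receptor genes 2 higher and 0 lower were called, Grin2a (0.31, but -0.06 in impaired rats) and Grin2c (0.26), whose call was lost when any of 24 rats was left out. Among 7 kainate receptor genes 2 higher and 2 lower were called, and Grik4 (-0.98) and its auxiliary partner Neto1 (-1.18) were both lower in CA1. Of the higher calls, Grik3 (0.36) was lost when any of 3 rats was left out and stood at -0.29 from 9000 up. Grik4 stood at -1.85 below 9000 and -0.003 from 9000 up. Of 7 metabotropic glutamate receptors, Grm2 (1.12) and Grm8 (1.04) were called higher in CA1, but stood at -0.48 and -0.68 from 9000 up, and the series differed (adjusted p by limma 2.71e-12 and 2.41e-09). Among 13 GABA-A receptor genes 4 higher and 2 lower were called, and of the lower ones Gabra2 (-0.35) was lost when any of 19 rats was left out. Gabrd, the delta subunit of extrasynaptic receptors, had medians of 437 in CA1 and 156 in CA3 (1.27), and CA1 was higher in 32 of 34 rats. Of 4 GABA-B receptor genes 0 higher and 1 lower were called, Gabbr2 (-0.21), a call that was lost when any of 21 rats was left out. Its log2 change from 9000 up was 0.065 without the off-label rats (adjusted p by limma 0.613). From 9000 up, where 2.32% of all genes were called higher and 1.64% lower, the AMPA list gave 0 higher and 0 lower, NMDA 1 higher and 0 lower, kainate 0 higher and 1 lower and GABA-A 0 higher and 1 lower.

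Among potassium channel genes, calls higher in CA1 outnumbered those lower over all rats but not in the rats from 9000 up. Of 38 voltage-gated potassium channel genes 12 higher and 4 lower were called, and of 24 other potassium channels 6 higher and 3 lower. From 9000 up (2.32% higher and 1.64% lower over all genes) the lists gave 3 higher and 3 lower, and 0 higher and 3 lower. Over all genes, young rats gave 301 higher and 156 lower of 13893 tested. Unimpaired rats gave 118 and 64 of 13873, and impaired rats 220 and 239 of 13896. By class, the voltage-gated channels gave 7 higher and 1 lower in young rats, 2 higher and 1 lower in unimpaired and 2 higher and 3 lower in impaired rats. The other channels gave 4 higher and 1 lower, 0 higher and 1 lower and 4 higher and 1 lower. A difference between the series was called for 18 of 38 and 6 of 24. Kcnh7 (1.09), Kcnh5 (1.00), Kcnj4 (0.91) and Kcnk2 (0.83) were higher in CA1. Kcnq5, which carries an M-type current, ran from 296 to 1369.5 (median 549) in CA1 and from 396 to 3072 (median 2134) in CA3, and changed by -1.43 ± 0.14 (SE; adjusted p = 4.84e-14 by limma) with Illumina and -1.45 ± 0.15 (adjusted p = 1.86e-12 by limma) with Ion Proton. It was higher in CA3 in 18 of 18 rats below 9000 (-2.42) and in 11 of 16 from 9000 up (-0.32). Of 15 calcium channel genes 3 higher and 2 lower were called, with Cacna1c at -0.51, Cacna1h at 0.37 and Cacna1d at 0.24 (lost when any of 2 rats was left out), and of 8 sodium channel genes 0 higher and 0 lower. From 9000 up these gave 0 higher and 0 lower and 3 higher and 0 lower. The calcium channels gave 0 calls in young rats, 1 higher in unimpaired and 2 lower in impaired rats, against 3.29%, 1.31% and 3.3% of all genes. Of 5 HCN pacemaker genes, only Hcn3 was called (-0.51) over all rats. Calcium handling and second messengers were also unequal. Of 29 calcium store, pump and buffer genes 8 higher and 1 lower were called. Itpka, the inositol trisphosphate kinase (0.74), Atp2b1 (0.51) and Itpr1 (0.44) were higher in CA1, and Itpr1 stood at 0.45 and 0.43 in the series. Calb1, calbindin, had 429 to 1665 (median 1292) in CA1 and 306 to 1585 (median 608) in CA3 (0.63), with 1.53 below 9000 and -0.39 from 9000 up. Of 22 genes of cAMP and protein kinase C signalling 6 higher and 5 lower were called. Adenylyl cyclase Adcy1 was higher in CA1 (1.25) and protein kinase C alpha, Prkca, was lower (-0.72). Prkca stood at -1.42 below 9000 and 0.06 from 9000 up, where none of the cAMP and protein kinase C list was called, and 11 of 22 were called for the difference between the series. The calcium store list gave 9 higher and 3 lower from 9000 up.

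Most called neuropeptide precursors were higher in CA1 and most called neuropeptide receptors lower. Of 14 neuropeptide precursors 6 higher and 1 lower were called, beside Nts and Pdyn the PACAP precursor Adcyap1 (1.10, but -0.03 from 9000 up), neuromedin B, Nmb (0.97), Tac3 (0.69) and enkephalin, Penk (0.57). Gastrin-releasing peptide, Grp, was lower in CA1 (-0.86). Of 27 neuropeptide receptors 2 higher and 11 lower were called (median -0.31). Galr1 ran from 1.17 to 35.2 (median 10.1) in CA1 and from 1.5 to 122 (median 44.8) in CA3, and was higher in CA3 in 30 of 34 rats. Npy2r, a presynaptic receptor of neuropeptide Y, had medians of 64.6 and 246 (-1.59). The opioid receptors Oprm1 (-0.48) and Oprl1 (-0.48) were lower in CA1, and the somatostatin receptor Sstr2 was higher (0.92). The neurotensin receptors Ntsr1 (-0.12) and Ntsr2 (0.19) were not called. From 9000 up precursors gave 2 higher and 0 lower and receptors 0 higher and 4 lower. By class, receptors gave 1 higher and 2 lower in young rats, 1 higher and 0 lower in unimpaired and 1 higher and 3 lower in impaired rats. Over all genes, young rats gave 301 higher and 156 lower of 13893 tested. Unimpaired rats gave 118 and 64 of 13873, and impaired rats 220 and 239 of 13896. Of 28 monoamine and cholinergic receptors 6 higher and 6 lower were called. The list gave 8 higher and 4 lower below 9000 and 3 higher and 5 lower from 9000 up, and 9 of 28 were called for the difference between the series. The serotonin receptors Htr5b (1.46) and Htr1b (1.39), the dopamine receptor Drd5 (1.06) and the nicotinic subunit Chrna5 (1.06) were higher in CA1, while Htr7 was lower (-1.17). From 9000 up Drd5 stood at -0.29 and Chrna5 at -0.58, and both differed between the series (adjusted p by limma 9.03e-06 and 6.55e-11).

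Wiring and identity genes followed. Of 48 axon guidance genes 9 higher and 7 lower were called. The receptors Robo3 (1.84), Epha8 (1.4), Plxnd1 (1.10) and Epha7 (0.86) were higher in CA1, and the ligand Slit2 and the netrin receptor Unc5c (-0.78) lower. Slit2 ran from 273 to 1158 (median 531) in CA1 and from 344 to 2071 (median 1391) in CA3, and changed by -1.22 ± 0.12 (SE; adjusted p = 5.38e-15 by limma) with Illumina and -1.21 ± 0.12 (adjusted p = 1.12e-13 by limma) with Ion Proton. Of 41 adhesion genes 14 higher and 7 lower were called, with the latrophilin Lphn2 (1.58) and the contactin Cntn4 (0.81) higher and the nectin Pvrl3 (-1.03) lower in CA1. Pvrl3 stood at -1.87 below 9000 and -0.08 from 9000 up. Of 44 transcription factors 13 higher and 4 lower were called, beside Nhlh1 the factors Bcl11b (1.25) and Zfhx4 (1.25) in favour of CA1, and Nr2f2 (-0.98) and Plagl1 in favour of CA3. Zfhx4 was called in both series (1.5 and 0.97). Of 36 genes of synaptic vesicle release 7 higher and 15 lower were called, and the list stood at a median of -0.16. By class it gave 3 higher and 1 lower in young rats (median -0.06), 1 higher and 2 lower in unimpaired and 4 higher and 5 lower in impaired rats. Over all genes, young rats gave 301 higher and 156 lower of 13893 tested. Unimpaired rats gave 118 and 64 of 13873, and impaired rats 220 and 239 of 13896. The abundant core genes Snap25 (-0.40), Stx1a (-0.47), Syn2 (-0.49), Sv2b (-0.61) and Rims1 (-0.41) were lower in CA1, whereas Cplx3 (1.15, but -0.42 from 9000 up), Doc2b (1.03) and Unc13c (1.01) were higher. Of 16 immediate early genes 6 higher and 1 lower were called, with Arc (0.74), Nr4a1 (0.74) and Egr1 (0.68) higher in CA1, Nr4a3 (-0.31) lower, and 1 called for a difference between series. Among the higher calls Dusp1 was lost when any of 8 rats was left out and Egr4 when any of 2 was. Of 21 Wnt genes 4 higher and 1 lower were called, with Wnt2 at 1.33 and Fzd7 at 1.04 (lost without rat R9860), and of 8 neurotrophin genes 2 higher and 0 lower. Bdnf stood at 0.02 and was not called. From 9000 up the axon guidance list gave 8 higher and 4 lower, adhesion 0 higher and 2 lower, transcription factors 3 higher and 3 lower, vesicle release 1 higher and 4 lower, immediate early genes 3 higher and 0 lower and Wnt 2 higher and 0 lower. Below 9000 these lists gave, in this order, 12 higher and 14 lower, 15 and 5, 16 and 7, 7 and 16, 5 and 1, and 3 and 4. For the difference between the series 19, 12, 16, 13, 1 and 4 of their genes were called.

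It was next asked whether CA1 and CA3 differed alike in young, aged unimpaired and aged impaired rats. Separate fits called 457 genes in 10 young rats, 182 in 12 unimpaired and 459 in 12 impaired rats, and 76 in all 3 with the same direction (51 higher in CA1 and 25 lower). Of the genes called over all rats and tested in a class, 1984 of 1987 had the same sign in young, 1979 of 1988 in unimpaired and 1983 of 1986 in impaired rats, whose libraries are part of the pooled fit. Nts changed by 3.0, 3.04 and 3.38 in these classes, and Plagl1 by -2.47, -1.67 and -2.40. Slc27a2, a fatty acid transporter, ran from 1.45 and 1.14 to 3.23. This gene was picked after its values were seen, was not called for maze class, and also differed between the number series (-2.98). Tests of the difference itself found 0 genes for aged against young and 0 for impaired against unimpaired with limma. At an unadjusted p-value under 0.05 the Illumina table held 268 (1.89%) and 740 (5.22%) of 14179 genes. The share for age was below what chance alone gives at this threshold. The fit had no term for the rat or the number series, and 0 calls do not show that the classes are alike. edgeR on recovered reads called 0 genes in both tables for maze class, 2 in the Illumina table alone, and 10 for age. The 10 genes were Kl, F5, Sostdc1, Slc4a5, Aqp1, Cldn2, Kcnj13, Igf2, Tmem72 and Slco1a2, of which Kl, Sostdc1, Aqp1, Cldn2 and Kcnj13 belong to the choroid plexus list. The summed level of that list in CA1 reached 157104 and 131768 in aged rats R9870 and R9865, against a median of 277, and without the 7 off-label rats, to which these belong, edgeR called 0 genes.

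A further table of the same tissue pieces, named WT by the submitters and without a stated library type, was used as a check. It called 4503 of 13655 genes between CA1 and CA3, 2255 higher and 2248 lower in CA1. Of the genes called in both poly-A tables, 1929 were tested there, 1914 had the same sign and 1680 passed the threshold with it. Wfs1 changed by 1.70, Nts by 3.21, Ndst4 by 2.12 and Nnat by -1.47 in this table. The 3 tables share the animals, and their likeness bears on technical error alone.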

How the data were processed

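RNA of CA1, CA3 and DG of 34 rats was read from 3 deposited tables, each with 1 column per library and 0 columns left unmapped. The deposited values are a normalised signal, gene counts that the authors divided by a size factor per library. Per the study's methods and the submitters' processing notes, Illumina poly-A reads were trimmed with cutadapt 1.8.3, aligned to rn5 with STAR 2.5 and counted with featureCounts 1.4.4, and Ion Proton reads were aligned with TopHat2 and Bowtie2. For the WT table the aligner and counter are not given in the sources used here. Values were whole multiples of 1 step per library, which returned whole reads for 100% of them (tolerance 0.01), and their totals are the depths. The tables give a chromosome per gene but no start or end.

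Genes with a mean of at least 10 were tested with limma 3.58.1 (R 4.3.3, trended variance) on log2(value + 1) in 1 fit of all libraries per table, with Benjamini-Hochberg adjustment over all genes, without a term for the rat. Called genes had an adjusted p-value under 0.05 in both poly-A tables with the same direction. The Ion Proton libraries hold the RNA of the same rats. CA1 and CA3 libraries pair by animal: their deviations from the group means correlated at a median of 0.053 (Illumina) and 0.035 (Ion Proton) within a rat and -0.0017 and 0.0032 between rats. Named genes were the 15 with the largest mean log2 change in each direction, up to 6 called members of each of 44 lists, and Wfs1, Nts, Ndst4 and Nnat. Of 682 listed symbols 667 were found. A few members are not reported here. The members and lists were chosen with earlier results of these data known. edgeR 4.0.16 and DESeq2 1.42.0 on recovered reads, other pseudocounts, filters and scalings, a block on the rat and subsets of rats were alternatives. The limma procedure was tested on simulated data. RefSeq promoters matched 12 of 15 and 10 of 15 of the genes named by size.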

Additional observations from a re-analysis of the deposited data

Results flagged for a closer look

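The CA1 minus CA3 difference differed between rats numbered from 9000 up and below 9000 in 1936 genes by limma with an adjusted p-value under 0.05 in both poly-A tables. Of the 31 genes named by size or given as markers, 17 were among them. The log2 change was lower from 9000 up for Nhlh1 (-2.98), Ndst4 (-3.25), Lnp1 (-2.81), Cftr (-3.99), Pdyn (-2.88), Slc27a2 (-2.98) and C1ql2 (-2.10). It was higher, that is nearer to 0 or past it, for LOC690918 (5.93), Tmem212 (4.04), Aurkb (4.13), Gnrhr (3.11), Bbox1 (3.63), Cdhr4 (4.27), RGD1562726 (1.38), Adgb (3.11), Ccdc162 (3.74) and RGD1564149 (3.42). The others, among them Nts, Wfs1, Plagl1, Mx1, Robo3 and Nnat, did not pass this test in both tables. Number series coincides with no age or maze class, and what else differs between the series is not in the labels.

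Among the 10 young rats, the per-rat difference of rat R9879 lay apart from the other 9 for Dlk1 (4.31) and RGD1562726 (2.30), both of which are otherwise higher in CA3. Of 31 genes examined in this way, 2 had such a sample, and chance gives about 1 in 20. The library of this rat labelled CA3 lay nearest to CA1 by its markers in both poly-A tables.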

How the results depend on the processing

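The count of 1996 genes (1010 higher and 986 lower in CA1) stayed within 1.5 times under edgeR, DESeq2, both pseudocounts, no filter, quantile and TMM scaling, class as a covariate, CA1 and CA3 libraries alone, and without deep or off-label rats. A replicate block on the rat gave 2240 genes, and among named genes it ended only the calls of Spag6 and Cnih3. Leaving out 1 rat gave 1805 to 2127 genes. Counts moved to 3023 (1357 higher in CA1, 1666 lower) below 9000, 551 (323 higher in CA1, 228 lower) from 9000 up, 867 (504 higher in CA1, 363 lower) from 9000 up without off-label rats (added after seeing the data), 457 (301 higher in CA1, 156 lower) in young, 182 (118 higher in CA1, 64 lower) in unimpaired and 459 (220 higher in CA1, 239 lower) in impaired rats, 3280 (1622 higher in CA1, 1658 lower) with the WT table in place of the Ion Proton, and 5024 (2597 higher in CA1, 2427 lower) in the Illumina table alone. Subsets hold fewer rats, and 1 table in place of 2 is a looser rule. For the age interaction edgeR gave 10 genes in place of 0. The age interaction gave 0 genes with the rat block, pseudocount 0.1 and without off-label rats, and the maze interaction gave 0 under these and edgeR.

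Of 149 named genes, 12 lost the call without some single rat: Cacna1d, Cnih3, Dusp1, Egr4, Fkbp5, Fzd7 (without rat R9860), Gabbr2, Gabra2, Grik3, Grin2c, Hapln1 and Spag6. Signs reversed in these fits. In rats from 9000 up the log2 changes were Adcy8 -0.23, Adcyap1 -0.033, Aurkb 0.14, Cacna1d -0.0017, Calb1 -0.39, Ccdc153 0.11, Ccdc162 0.27, Cdhr4 0.61, Chrna5 -0.58, Cnih3 -0.50, Cntn3 -0.0091, Cplx3 -0.42, Dkk3 0.11, Dnah11 0.61, Dnah5 0.25, Dnah5 0.21, Drd5 -0.29, Fkbp5 0.11, Grik3 -0.29, Grm2 -0.48, Grm8 -0.68, Kcnc4 -0.14, Kcnh3 -0.018, LOC690918 0.24, Prkar2b -0.10, Prkca 0.057, RGD1564149 0.28, Spag6 0.19, Tmem212 0.27, Tshz2 -0.19. In those rats without the off-label ones they were Adcy8 -0.33, Calb1 -0.50, Chrna5 -0.55, Cnih3 -0.45, Cntn3 -0.065, Cplx3 -0.52, Dkk3 0.19, Dnah11 0.16, Drd5 -0.84, Fkbp5 0.18, Gabbr2 0.065, Gabra5 0.084, Grik3 -0.33, Grik4 0.060, Grm2 -0.52, Grm8 -0.66, Kcnc4 -0.0069, LOC690918 0.40, Prkar2b -0.19, Prkca 0.059, Sema3f -0.39, Tshz2 -0.26. In rats below 9000 the change was Trhr 0.18 and in impaired rats Grin2a -0.056. The cause was not tested. Genes with low counts have wide errors at the lowest depth of 3246922 reads, and a gene not called is not shown to be equal.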

Other observations

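Other lists showed values not described above. Over all genes, 7.26% were called higher in CA1 and 7.09% lower over all rats, 9.81% and 12% below 9000, 2.32% and 1.64% from 9000 up, and 13.9% for the difference between the series. Of 9 endothelial genes, 5 higher and 0 lower in CA1 were called below 9000 (median 0.41) and 0 higher and 0 lower from 9000 up (-0.04), and 1 was called for the difference. Their summed level reached 9794 in CA3 of rat R9876, against 5104 in the next and a median of 2777, and the part of this library in the values from 9000 up was not tested. The median of haemoglobin genes was 0.41 and 0.004. Of 8 CA2 markers, 0 higher and 2 lower were called over all rats, Amigo2 (-0.94) and Actn2 (-0.80). Of 7 tested below 9000, 0 higher and 4 lower were called (median -0.33), and of 8 tested from 9000 up 1 higher and 0 lower (median 0.12). These medians are over unequal sets of genes, and 5 of 8 were called for the difference between the series. Of 7 genes of the striatum list 3 higher and 0 lower were called, and the CA1 library of rat R9869 had the highest summed level, with 3927 in the next. Of 7 subiculum genes 2 higher and 1 lower were called over all rats. The list gave 5 higher and 1 lower below 9000 (median 0.61) and 0 higher and 2 lower from 9000 up (median -0.24), and 4 of 7 were called for the difference between the series. Of 6 genes of thalamus and habenula 1 higher and 0 lower were called, namely Slc17a6 (1.01), which is on both lists. Of 8 meningeal genes only Lum was called (-1.49) over all rats, and its call held without any single rat. The summed level of the list stood apart in a few libraries. It reached 157188 in CA3 of rat R9876, with 15635 in the next and a median of 3801, and 70704 and 44664 in CA1 of rats R2231 and R2175, with a median of 4016. Of 8 identifiers for 7 genes of corticosteroid receptors and targets, 2 higher and 1 lower were called. Both higher calls were the glucocorticoid receptor Nr3c1, which is listed under 2 identifiers. The lower call was Fkbp5 (-0.26), which was lost when any of 14 rats was left out and stood at 0.11 from 9000 up. Of 8 oligodendrocyte precursor and 6 smooth muscle and pericyte genes, 0 were called over all rats in either direction. Below 9000 the first list gave 0 higher and 4 lower and the second 4 higher and 0 lower, and from 9000 up neither had a call. The summed level of smooth muscle and pericyte genes reached 8964 in CA3 from 9000 up (median 1966). Of 16 perineuronal net and matrix genes 1 higher and 3 lower were called, with Acan, the main proteoglycan of the nets, at -0.55. The higher call was Hapln1 (0.27), which was lost when any of 26 rats was left out.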
